A study of Mus musculus with 6 samples.

Results

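The kinesin genes described here were all rows of the expression table whose mouse symbol begins with Kif or Kifc and a digit. There were 44 such genes of 28738 in the table. Of these, 41 encode motors of 13 kinesin families and 3 do not: Kif1bp, which encodes a protein that binds kinesins, Kif4-ps, a pseudogene of Kif4, and Kif16bos, a non-coding RNA opposite Kif16b. Kinesins are motor proteins that walk along microtubules or take them apart at their ends, using the energy of ATP. Some carry vesicles, organelles and RNA through the cell, some build cilia, and others assemble the spindle, line up chromosomes and complete cytokinesis. An oocyte at the germinal vesicle stage waits in meiotic prophase and already stores the RNAs of spindle motors that it will need when it resumes meiosis.

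RNA was sequenced from fully-grown germinal vesicle oocytes of Uba3 conditional knockout mice (Uba3 cKO) and of control mice, both of the strain given as C57/Bl6/N;129SvEv7. The product of Uba3 is the catalytic part of the NEDD8-activating enzyme, which starts the attachment of NEDD8 to cullins and other proteins. Each group had 3 libraries, and each library came from a pool of about 150 oocytes. The sources used here do not say which Cre line removed the gene, from which cells or at what age, nor whether the controls carried a floxed allele or whether the pools came from separate animals. The p-values therefore measure only the spread between these pools.

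The authors normalized the values between libraries and deposited them as log2, and differences are Uba3 cKO minus control on that scale. The depth of each library is unknown. A filter kept 17450 genes for testing, those with a linear value of 10 or more in 3 or more of the 6 libraries. A gene was called when limma gave a Benjamini-Hochberg adjusted p under 0.05 over all of them, and every adjusted p below comes from that fit. Uba3 itself stood at 10.03, 10.16 and 10.36 in Uba3 cKO oocytes, against 11.37, 11.46 and 11.34 in control oocytes. The difference was -1.21 (SE 0.10, adjusted p = 2.07e-05). By exact permutation over libraries, two-sided, p was 0.1, which is the smallest value that 3 libraries against 3 can reach. Over all kept genes, 5.64% were called higher and 2.50% lower.

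The libraries expressed oocyte genes at high levels, with all 15 oocyte markers kept. Among them Zp2 (-0.30) and Bmp15 (-0.25) were called lower and Dazl (0.40) higher. Summed linear values of these markers lay between 481236 and 537626 in Uba3 cKO libraries, against 543982 to 607132 in control libraries. Gdf9, Bmp15 and Zp2 gave most of each sum. Over the list 11 differences were below 0 (73.3%, against 51.8% of all kept genes) and 4 were above. Markers of other ovarian cells were measured too. The 16 theca, stroma and luteal markers were all kept. They summed to between 3064 and 3978 in Uba3 cKO libraries, against 4302 to 6258 in control libraries. Of these markers 5 were called lower (Cyp11a1, Col1a2, Col3a1, Dcn and Acta2), and 15 differences were below 0 (93.8%, against 51.8% of all kept genes). Hsd3b1, the largest term of the sum in every library, was not called (-0.64, adjusted p = 0.0558). For granulosa and cumulus markers, of which 19 of 20 were kept, the sums were 27462 to 33216 in Uba3 cKO and 31010 to 39627 in control libraries. Fshr and Kitl were higher and Inhba, Aldh1a1 and Lhcgr lower. For blood and immune markers, 10 of 13 kept, they were 572 to 624 in Uba3 cKO and 623 to 736 in control libraries, with Hbb-bs and C1qb called lower. Of 11 endothelial markers 10 were kept, with sums of 4094 to 4826 in Uba3 cKO and 4084 to 4412 in control libraries, and Tie1 was called lower. Pecam1 and Tek gave most of that sum. Over the 6 libraries Flt1 had log2 values of 8.13 to 8.95, Tie1 of 6.78 to 7.56 and Kdr of 6.43 to 6.55. Cdh5, Emcn, Esam, Egfl7 and Vwf had log2 values between 3.36 and 5.59 in all 6 libraries. Of the 16 calls among all these markers, 3 (Col3a1, Dcn and Tie1) were kept in all 18 alternative fits. Here and below, 1 of these alternatives is the main fit read at an adjusted p under 0.1, where no call can be lost. The other 13 were each lost in 2 to 11 of them, with C1qb lost whichever library was left out. Of 10 markers of ciliated epithelium found, 5 were kept and none was called, with sums of 1181 to 1359 in Uba3 cKO and 1122 to 1235 in control libraries. Most of these sums came from Dnah5 (8.59 to 8.97 over the 6 libraries), Dnah9 (8.71 to 9.01) and Hydin (7.72 to 8.17). Hydin was higher in Uba3 cKO libraries without overlap (0.28, adjusted p = 0.108). The other kept markers, Ccdc39 and Spag6, were between 3.76 and 5.24. Foxj1, the master regulator of motile cilia, was under the filter at 2.33 in both groups, as were Tekt1, Rsph1, Ccdc40 and Dynlrb2 at their own levels. The table has no exact 0. In pooled cells, fewer cells of a type and less RNA per cell cannot be told apart.

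The motors stored most abundantly per length of transcript were those of the spindle and of cytokinesis. Levels of different genes were compared as linear value per kb of exon. In this unit Kif22, a chromokinesin that pushes chromosome arms away from the poles, had 1207 ± 84.7 in Uba3 cKO and 1371 ± 201 in control oocytes (SD, n = 3 each). Kif20a, which brings the chromosomal passenger complex to the central spindle, had 1280 ± 68.9 in Uba3 cKO and 1342 ± 152 in control oocytes (SD, n = 3 each). Kif17, a homodimeric motor of cilia and dendrites, had 1032 ± 181 in Uba3 cKO and 1301 ± 261 in control oocytes (SD, n = 3 each). Kif4, a chromokinesin that binds PRC1 on the central spindle, had 1271 ± 73.8 in Uba3 cKO and 1276 ± 59.1 in control oocytes (SD, n = 3 each). In control oocytes these 4 did not differ from each other beyond their spread.

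Next in control oocytes came Kif2c, a microtubule depolymerase of centromeres, with 1143 ± 89.9 in Uba3 cKO and 1123 ± 77.0 in control oocytes, and Kifc1, a minus-end motor that focuses spindle poles, with 958 ± 60.5 in Uba3 cKO and 1114 ± 107 in control oocytes (SD, n = 3 each). Kif23, the motor of centralspindlin, had 1002 ± 38.1 in Uba3 cKO and 952 ± 80.1 in control oocytes (SD, n = 3 each). Kif20b, another cytokinesis motor, had 850 ± 25.1 in Uba3 cKO and 906 ± 6.64 in control oocytes (SD, n = 3 each). Kif11, which slides antiparallel microtubules apart to make the spindle bipolar, had 910 ± 42.3 in Uba3 cKO and 801 ± 31.2 in control oocytes (SD, n = 3 each). In control oocytes Kif2c and Kifc1 were within their spread of each other, as were Kif23 and Kif20b. These 9 genes were above 90% of all kept genes per length in control oocytes, 8 of them spindle or cytokinesis motors. The 14 genes of that role together made up 70.8% ± 0.918 of the summed per-length level of all motors in Uba3 cKO oocytes and 70.3% ± 0.355 in control oocytes (SD, n = 3 each). Transport motors made up 17.2% ± 0.0706 in Uba3 cKO and 16.4% ± 0.654 in control oocytes, and motors of the cilium and centriole 11.5% ± 1.02 in Uba3 cKO and 12.8% ± 1.06 in control oocytes (SD, n = 3 each).

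**Figure D1:**
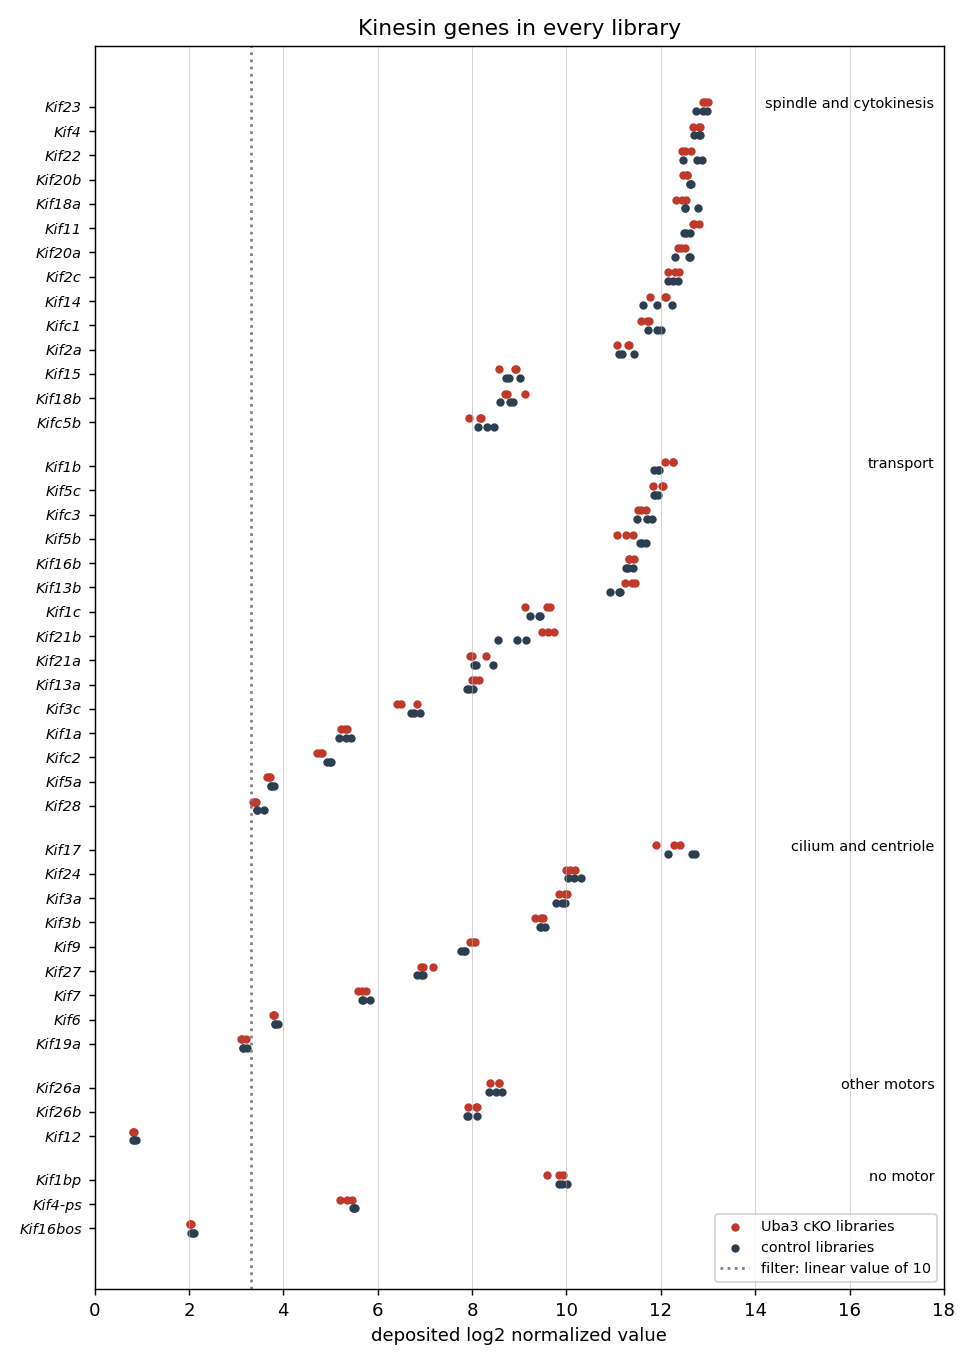
Deposited log2 values of all 44 kinesin genes, with the 3 Uba3 cKO libraries in red above the 3 control libraries in dark blue in each row, grouped by role and ordered by level, and a dotted line at the linear value of 10. Values are not corrected for transcript length, so rows are for comparing groups within a gene, and Kif21b, Kif5b and Kifc2 are among the genes whose groups do not overlap.

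At the low end, 3 of the 44 genes did not pass the filter: Kif12, an epithelial kinesin, at 0.82 to 0.84 in Uba3 cKO and 0.82 to 0.87 in control libraries, Kif19a, which limits the length of motile cilia, at 3.11 to 3.21 in Uba3 cKO and 3.14 to 3.24 in control libraries, and Kif16bos, at 2.03 to 2.05 in Uba3 cKO and 2.05 to 2.10 in control libraries. The neuronal motor gene Kif5a, at 3.66 to 3.71 in Uba3 cKO and 3.73 to 3.80 in control libraries, Kif28, a motor linked to mitochondria, and Kif6, a gene of motile cilia, passed it narrowly. The spread of the deposited values shrank at such levels, so fold changes there may be understated.

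Most kinesin RNAs differed little in level between Uba3 cKO and control oocytes. Of the 41 kept genes 1 was called higher, Kif21b, 2 were called lower, Kif5b and Kifc2, and 38 were not called. That is 7.32% called, against 8.14% of all kept genes in either direction. The median log2 difference was -0.02, against -0.01 for all kept genes, and the median size of the difference was 0.10 in both. In 12 of the 41 genes (29.3%) no Uba3 cKO library lay within the range of the control libraries or the reverse, against 27.9% of all kept genes, and an unadjusted p under 0.05 was given to 9 (22%), against 22.8%. By these counts the kinesin genes were close to the background of the table. The 3 called genes are all among the 15 kept genes grouped here as transport motors (20%, against 8.14% of all kept genes). That group includes Kif21a and Kif21b, whose products act on microtubule growth. The calls of Kif5b and Kifc2 were lost in some alternative fits, as given below.

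**Figure D2:**
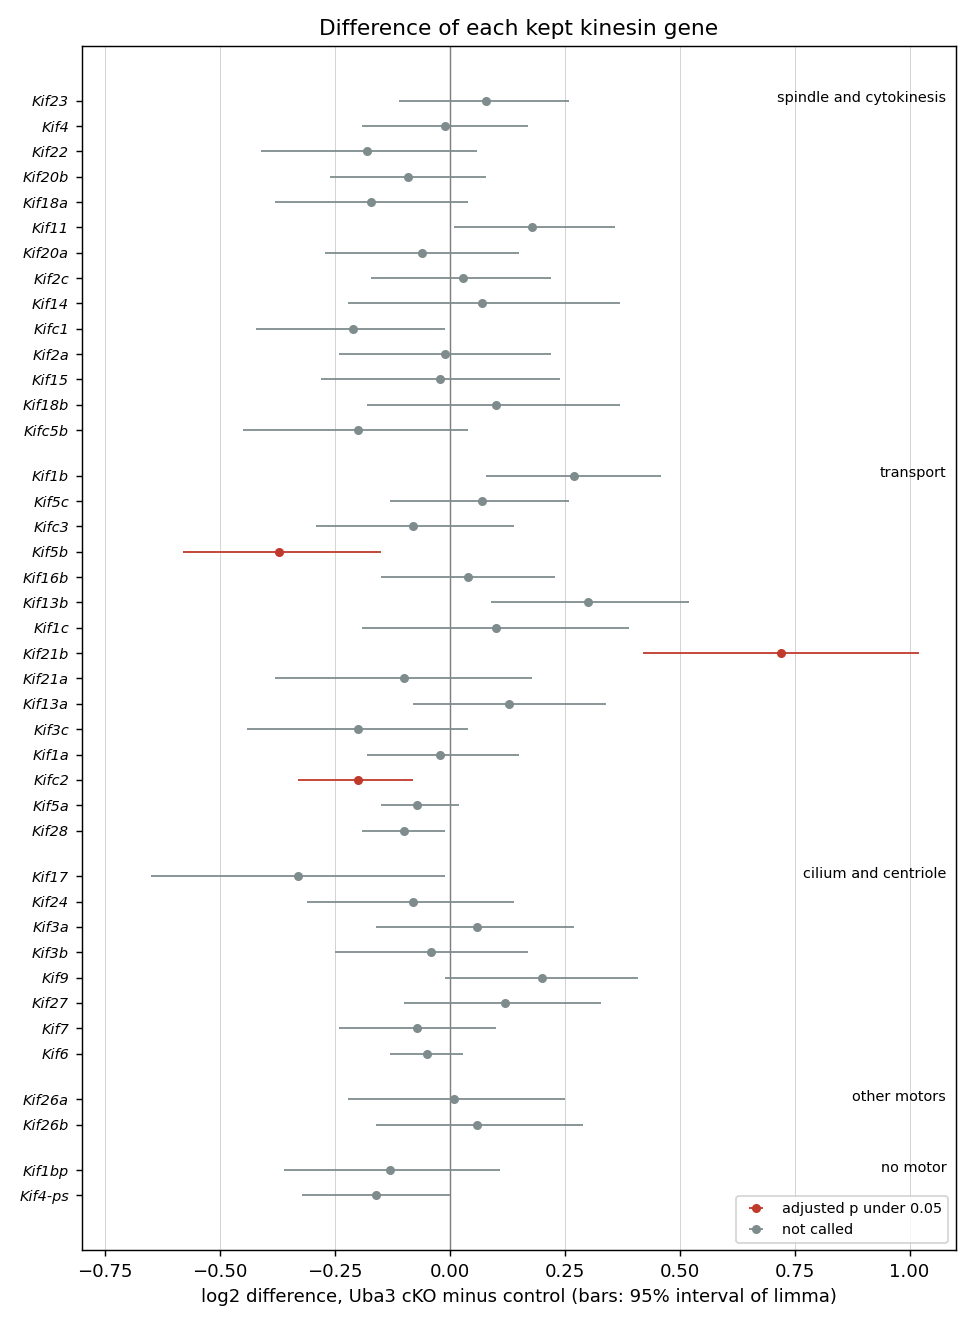
Log2 difference (Uba3 cKO minus control) of the 41 kept kinesin genes, with bars for the 95% interval from limma, red for called genes and grey for the rest. Kif21b at 0.72 lies far to the right of all others, and every gene of the spindle and cytokinesis group lies within 0.25 of 0.

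Kif21b showed the largest difference of the kinesins. It encodes a kinesin-4 motor of neurons and immune cells that pauses the growth of microtubules. Its log2 values were 9.60, 9.48 and 9.73 in Uba3 cKO oocytes, against 8.96, 8.54 and 9.14 in control oocytes. Every Uba3 cKO library was above every control library, and control replicate 2 was the lowest of all 6. The difference was 0.72 (SE 0.14, 95% interval 0.42 to 1.02), a 1.65-fold higher level, with an adjusted p of 0.00619. The call was kept in all 18 alternative fits, and leaving out 1 library gave differences between 0.55 (without control replicate 2) and 0.85 (without control replicate 3), with adjusted p of 0.0373 or less.

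Its closest relative was not called. Kif21a, whose product stops microtubule growth in axons, stood between 7.96 and 8.29 in Uba3 cKO oocytes, against 8.04 to 8.44 in control oocytes, and the groups overlapped (-0.10, SE 0.13, adjusted p = 0.699). Per length, the log2 ratio of Kif21b to Kif21a was 0.69, 0.27 and 0.85 in Uba3 cKO libraries, against -0.39, -0.41 and 0.15 in control libraries. This ratio was not tested. Kif21b lies on chromosome 1 (ENSMUSG00000041642). Of the kept genes nearest to it, Tmem9 (-0.03), Igfn1 (-0.02), Mroh3 (-0.19) and Camsap2 (0.07) were not called. In the kinesin-4 family Kif4 made up 89.9% ± 0.802 of the per-length level in Uba3 cKO and 91.5% ± 0.452 in control oocytes, while Kif21b made up 4.54% ± 0.600 in Uba3 cKO and 2.80% ± 0.469 in control oocytes (SD, n = 3 each).

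Kif5b, the ubiquitous heavy chain of kinesin-1 that carries organelles and RNA, was lower. Its log2 values were 11.27, 11.40 and 11.07 in Uba3 cKO oocytes, against 11.68, 11.61 and 11.55 in control oocytes. All Uba3 cKO libraries were below all control libraries, and Uba3 cKO replicate 3 was the lowest. The difference was -0.37 (SE 0.10, 95% interval -0.58 to -0.15, adjusted p = 0.0398), a 1.29-fold lower level. It kept its call in 11 of 18 alternative fits. The call was lost when any library but Uba3 cKO replicate 2 was left out, with adjusted p up to 0.17. Leaving out 1 library gave differences between -0.44 (without Uba3 cKO replicate 2, where the call was kept) and -0.28. The call was also lost with no filter on low values or no intensity trend (adjusted p 0.0515 and 0.0527). Kif5b lies on chromosome 18 (ENSMUSG00000006740), and of the kept genes nearest to it Arhgap12 was called higher (0.29, adjusted p = 0.0410), while Zeb1, Epc1 and Rab18 were not called. The sums given above for oocyte markers and for theca, stroma and luteal markers were also lower in Uba3 cKO libraries, without overlap. For oocyte markers the gap was narrow, at 537626 in Uba3 cKO replicate 1 against 543982 in control replicate 1. The part of these sums in this result was not tested.

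The other kinesin-1 heavy chains were not called. Kif5c, best known from neurons, had 12.02, 11.83 and 12.04 in Uba3 cKO oocytes, against 11.88, 11.95 and 11.86 in control oocytes, with a difference of 0.07 (SE 0.09, adjusted p = 0.701). Per length it was the more abundant of the pair in every library. Of the summed per-length level of kinesin-1, Kif5c made up 64.6% ± 4.31 in Uba3 cKO and 57.5% ± 1.22 in control oocytes, and Kif5b made up 35.2% ± 4.31 in Uba3 cKO and 42.3% ± 1.23 in control oocytes (SD, n = 3 each). The log2 ratio of Kif5b to Kif5c per length was -0.91, -0.59 and -1.14 in Uba3 cKO libraries, against -0.36, -0.50 and -0.47 in control libraries, so the groups did not overlap. This ratio was not tested. The family sum was 895, 850 and 863 per kb in Uba3 cKO libraries, against 939, 950 and 897 in control libraries.

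Kifc2, a minus-end motor of neurons, was called lower at a low level. Its log2 values were 4.83, 4.77 and 4.72 in Uba3 cKO oocytes, against 5.01, 4.99 and 4.93 in control oocytes. The difference was -0.20 (SE 0.06, adjusted p = 0.0439). The gene (ENSMUSG00000004187, chromosome 15) kept its call in 5 of 17 alternative fits and lost it whichever of the 6 libraries was left out (adjusted p 0.0731 to 0.129). When values were corrected for the length and base composition of the longest transcript, an alternative added after seeing the data, the difference was -0.13 (adjusted p = 0.222). In the annotation, 4.15% of its exonic bases are shared with Cyhr1 on the opposite strand, which had a difference of -0.07 and was not called. The part of the oocyte and somatic marker sums above in this result was not tested.

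**Figure D3:**
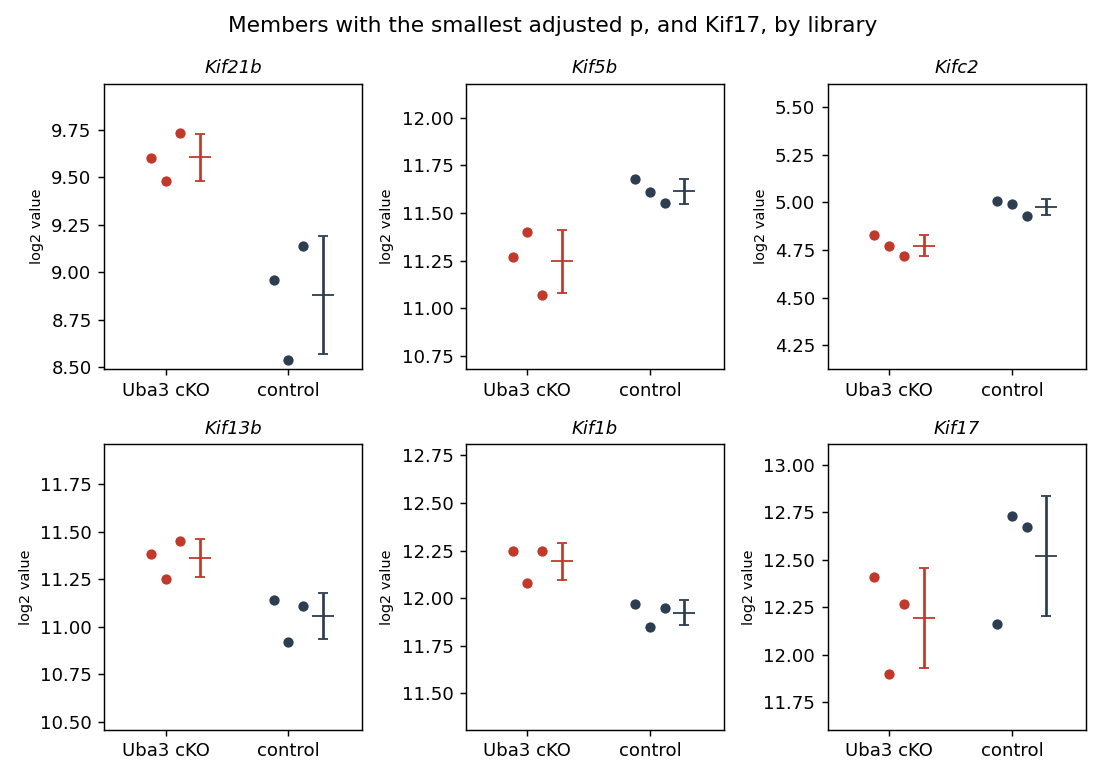
Log2 values of 6 kinesin genes in each library, Uba3 cKO left in red and control right in dark blue, with the mean and SD (n = 3) beside the points and the same height of scale in each panel. The groups do not overlap for Kif21b, Kif5b, Kifc2, Kif13b and Kif1b, while for Kif17 control replicate 1 lies among the Uba3 cKO libraries.

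A pair of kinesin-3 transport motors came close to the threshold on the higher side. Kif13b, a vesicle motor, stood at 11.38, 11.25 and 11.45 in Uba3 cKO oocytes, against 11.14, 10.92 and 11.11 in control oocytes, with a difference of 0.30 (SE 0.10, adjusted p = 0.0774). Kif1b, which carries mitochondria and synaptic vesicle precursors, stood at 12.25, 12.08 and 12.25 in Uba3 cKO oocytes, against 11.97, 11.85 and 11.95 in control oocytes, with a difference of 0.27 (SE 0.09, adjusted p = 0.0780). Every Uba3 cKO library was above every control library for both genes, but neither was called. Both were called with sample weights (adjusted p 0.0430 and 0.0315). Corrected for length and GC, they differed by 0.26 (Kif13b) and 0.18 (Kif1b), with adjusted p of 0.102 and 0.209.

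Kif1b, Kif13b and Kif21b are among the kinesins with the longest exonic length, 17.6, 13 and 12.2 kb. Across the 39 kept motors, the Pearson correlation of log2 exonic length with the difference was 0.44, against 0.07 across 17188 kept genes with a length. These genes share the same 6 libraries, and the values are descriptions. Kif26b, at 14.7 kb, had a difference of 0.06, and Kif14, at 10.4 kb, had 0.07. Corrected for length and GC, Kif21b differed by 0.71.

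The other transport motors were not called. In the kinesin-3 family, Kif16b, an early endosome motor, differed by 0.04, Kif13a, a motor of endosomes and melanosomes, by 0.13, Kif1c, a vesicle motor, by 0.10, and Kif1a, which carries synaptic vesicle precursors, by -0.02. Kif28 was at 3.39, 3.42 and 3.36 in Uba3 cKO libraries, against 3.44, 3.44 and 3.59 in control libraries (-0.10, adjusted p = 0.192). Kifc3, a minus-end motor of epithelial cells, was at 584 ± 37.5 per kb in Uba3 cKO and 618 ± 67.7 per kb in control oocytes (SD, n = 3 each), with a log2 difference of -0.08. Kif3c, an alternative partner of KIF3A, differed by -0.20 (SE 0.11). The log2 value of Kif1bp differed by -0.13 (SE 0.11, adjusted p = 0.526).

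None of the 14 spindle and cytokinesis motors was called, against 8.14% of all kept genes. An unadjusted p under 0.05 was given to 2 (14.3%), against 22.8% of all kept genes. The differences of the 14 genes lay between -0.21 (Kifc1) and 0.18 (Kif11), and their 95% intervals ran from -0.45 at the lowest to 0.37 at the highest. Kif11 stood at 12.70, 12.68 and 12.80 in Uba3 cKO oocytes, against 12.50, 12.61 and 12.53 in control oocytes, with no overlap and a difference of 0.18 (SE 0.08, adjusted p = 0.204). Kif15, which acts beside KIF11 in spindle bipolarity, differed by -0.02 (SE 0.12) and was far less abundant per length, at 41.1 ± 5.49 in Uba3 cKO and 41.6 ± 4.45 in control oocytes (SD, n = 3 each).

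Among the motors that shorten microtubules or line up chromosomes, Kif2a, a depolymerase of spindle poles, differed by -0.01 (SE 0.11), and Kif2c by 0.03 (SE 0.09). Kif18a, which shortens kinetochore microtubules, stood at 12.44, 12.32 and 12.54 in Uba3 cKO oocytes, against 12.52, 12.79 and 12.52 in control oocytes (-0.17, SE 0.10, adjusted p = 0.330). Kif18b, which controls astral microtubules, differed by 0.10 (SE 0.13). Kif22 stood at 12.51, 12.44 and 12.64 in Uba3 cKO oocytes, against 12.46, 12.88 and 12.77 in control oocytes (-0.18, SE 0.11, adjusted p = 0.357). The groups overlapped for both Kif18a and Kif22, and control replicate 2 was the highest library for each.

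The motors of the central spindle and midbody differed by less than 0.1 in size. The log2 differences were -0.06 for Kif20a, -0.09 for Kif20b, 0.08 for Kif23, -0.01 for Kif4 and 0.07 for Kif14, a midbody motor. Kif20b had tight values, at 12.56, 12.48 and 12.55 in Uba3 cKO oocytes, against 12.63, 12.62 and 12.61 in control oocytes, with no overlap, yet an adjusted p of 0.532. Kif14 was among the most variable kinesins, at 12.09, 12.12 and 11.78 in Uba3 cKO oocytes, against 12.23, 11.62 and 11.92 in control oocytes. Of the exonic bases of Kif20a 29.3% are shared with Cdc23 on the opposite strand, and of those of Kif4 15.1% with Pdzd11. In all, 7 of the 44 genes share 10% or more of their exonic bases with another gene, the others being Kif3c, Kifc3, Kif7, Kif2a and Kif1bp. Without a stated strand setting, reads of such pairs cannot be told apart there.

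Kifc1 and its copy Kifc5b, both on chromosome 17, are close enough in sequence that the counting could have divided their reads differently. Their coding sequences in GENCODE M21 (build GRCm38) are 2025 and 2019 bases long and differ at 27 of 2015 aligned bases, an identity of 98.7%. Of all stretches of 100 bases in the Kifc5b coding sequence, 27.1% are found unchanged in that of Kifc1. The stretch of 60 bases with the most differences shows how few bases tell the transcripts apart. It covers coding positions 32 to 91 of Kifc1 and 29 to 88 of Kifc5b, counted from the A of the start codon and read in the direction of the transcript, with the 5 differing bases in capitals.
Kifc1: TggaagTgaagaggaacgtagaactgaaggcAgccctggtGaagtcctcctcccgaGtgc
Kifc5b: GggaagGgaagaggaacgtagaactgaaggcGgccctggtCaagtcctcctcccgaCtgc

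Both genes gave nearly the same difference. Kifc1 stood at 11.74, 11.71 and 11.57 in Uba3 cKO oocytes, against 11.73, 12.01 and 11.92 in control oocytes (-0.21, SE 0.10, adjusted p = 0.207). Kifc5b stood at 8.19, 8.16 and 7.94 in Uba3 cKO oocytes, against 8.13, 8.46 and 8.31 in control oocytes (-0.20, SE 0.12, adjusted p = 0.317). The log2 ratio of Kifc1 to Kifc5b per length was 3.67, 3.66 and 3.74 in Uba3 cKO libraries, against 3.72, 3.66 and 3.73 in control libraries. The values of the copy thus moved with those of Kifc1 from library to library. Whether Kifc5b reads came from Kifc1 was not tested. Kif4-ps, by the same comparison, is 80.3% identical to the coding sequence of Kif4 and shares no stretch of 100 bases with it, and differed by -0.16 (adjusted p = 0.225).

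**Figure D4:**
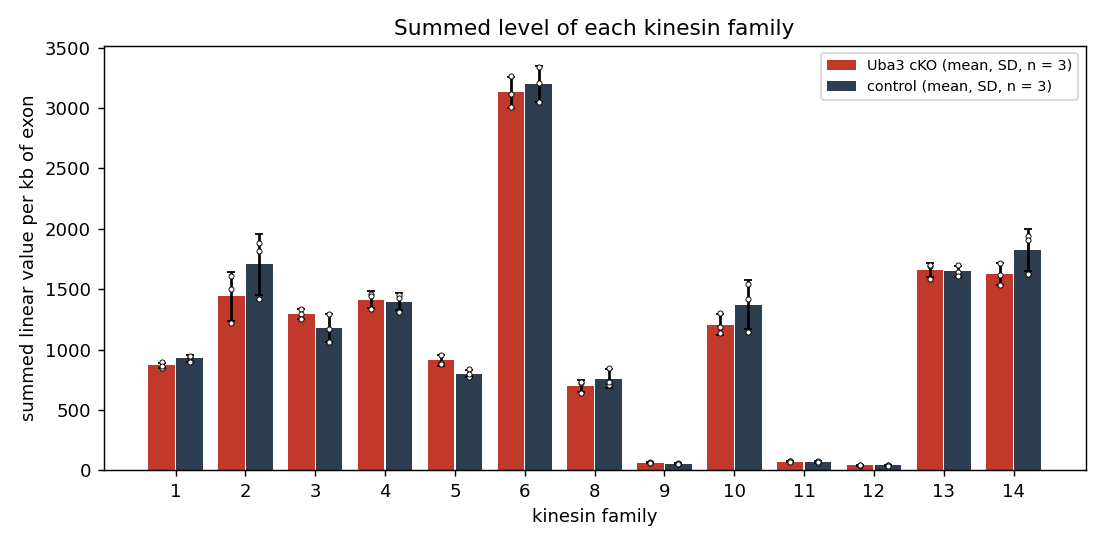
Summed linear value per kb of exon for each of the 13 kinesin families, with bars for the mean and SD of the 3 Uba3 cKO libraries (red, left) and the 3 control libraries (dark blue, right), and a point for each library. Family 6, with Kif20a, Kif20b and Kif23, has the highest sum, at 3132 in Uba3 cKO and 3200 in control oocytes, and families 9, 11 and 12 are close to the axis.

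None of the 8 kept motors of the cilium and centriole was called, against 8.14% of all kept genes. Kif17 had the largest difference, with 12.41, 11.90 and 12.27 in Uba3 cKO oocytes, against 12.16, 12.73 and 12.67 in control oocytes (-0.33, SE 0.15, adjusted p = 0.205). Control replicate 1 lay among the Uba3 cKO libraries, and without it the difference was -0.51 and was called (adjusted p = 0.0203). No other alternative fit called Kif17. Among control libraries, control replicate 1 also had the lowest sums of oocyte, granulosa, theca and endothelial markers, and the highest of blood and ciliated epithelium markers. The part of these sums in this result was not tested. Kif17 also had the largest spread between replicates of all kinesins, with a pooled SD of 0.29, against a median of 0.11 for the kept kinesins and 0.10 for all kept genes. Most of the per-length level of kinesin-2 was that of Kif17, at 71.3% ± 2.63 in Uba3 cKO and 75.8% ± 4.50 in control oocytes (SD, n = 3 each).

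The heterotrimeric kinesin-2 that drives intraflagellar transport differed little. Kif3a, its first motor, had 10.01, 9.85 and 9.97 in Uba3 cKO oocytes, against 9.97, 9.90 and 9.78 in control oocytes (0.06, SE 0.10). Its partner Kif3b differed by -0.04 (SE 0.10), and Kifap3, the accessory subunit, was not called. Kif24, a depolymerase of mother centrioles, differed by -0.08, Kif7, a regulator of Hedgehog signalling at the tip of cilia, by -0.07, Kif27, its paralogue, by 0.12, and Kif6 by -0.05. Kif9, a gene of motile cilia and sperm flagella, stood at 8.07, 7.95 and 8.02 in Uba3 cKO oocytes, against 7.85, 7.82 and 7.77 in control oocytes, with no overlap but an adjusted p of 0.234. Of the remaining motors, Kif26a and Kif26b, which regulate signalling, differed by 0.01 and 0.06.

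A pair of kinesins carry other symbols and so were not among the 44. Cenpe, the kinetochore motor that moves chromosomes to the spindle equator, stood at 12.86, 12.80 and 12.72 in Uba3 cKO oocytes, against 12.80, 12.51 and 12.75 in control oocytes (0.11, SE 0.09, adjusted p = 0.538). Stard9, a kinesin-3 of centrosomes, differed by 0.02 (SE 0.12).

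The proteins that work with kinesins were examined as 4 lists. Among 21 kept light chains and cargo adaptors, none was called higher and 1 lower (4.76% called, against 8.14% of all kept genes), with a median difference of -0.05. Klc4, a light chain that links kinesin-1 to cargo, stood at 7.91, 7.83 and 7.90 in Uba3 cKO oocytes, against 8.19, 8.29 and 8.18 in control oocytes (-0.34, SE 0.10, adjusted p = 0.0466). Klc4 kept its call in 6 of 18 alternative fits and lost it whichever library was left out (adjusted p 0.0600 to 0.143). The other light chain genes were not called, at -0.33 for Klc1 (adjusted p = 0.0864), -0.17 for Klc2 and -0.08 for Klc3. For each of the 4 light chains every Uba3 cKO library was below every control library, as in 12.8% of all kept genes. Klc1 to Klc3 were named after their values were seen. Over the whole list, groups did not overlap in 7 of 21 kept genes (33.3%), 6 lower and 1 higher, against 27.9% of all kept genes.

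Cytoplasmic dynein, the motor that runs opposite to most kinesins, had 1 gene called higher and 1 lower among 28 kept subunits, dynactin subunits and adaptors (7.14% called, against 8.14% of all kept genes), with a median of -0.05. Both encode forms of the same subunit, the intermediate chain that binds dynactin. Dync1i1 was at 8.65, 8.78 and 8.67 in Uba3 cKO oocytes, against 7.89, 8.23 and 8.20 in control oocytes (0.59, SE 0.11, adjusted p = 0.00570). Dync1i2 was at 12.17, 12.34 and 12.25 in Uba3 cKO oocytes, against 12.80, 12.80 and 12.65 in control oocytes (-0.50, SE 0.09, adjusted p = 0.00329). The groups did not overlap for either gene, and both calls were kept in all 18 alternative fits.

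Of 32 kept spindle partners of mitotic kinesins, 2 were called higher and 2 lower (12.5% called, against 8.14% of all kept genes), with a median of -0.01. Haus1 and Haus4 encode subunits of augmin, which branches spindle microtubules. Haus1 was at 10.22, 10.46 and 10.25 in Uba3 cKO oocytes, against 9.45, 9.85 and 9.83 in control oocytes (0.60, SE 0.12, adjusted p = 0.00799). Haus4 was at 11.10, 11.35 and 11.10 in Uba3 cKO oocytes, against 11.69, 12.03 and 11.71 in control oocytes (-0.63, SE 0.11, adjusted p = 0.00396). The 2 called subunits thus moved in opposite directions, and both calls were kept in all 18 alternative fits. Of the 6 other augmin subunits none was called. Haus3 (-0.22), Haus5 (-0.30) and Haus7 (-0.40, adjusted p = 0.0659) were below control without overlap, while Haus2 (0.10), Haus6 (0.10) and Haus8 (-0.13) overlapped. Of the 32 kept partners, 13 (40.6%) had groups without overlap, 5 higher and 8 lower, against 27.9% of all kept genes.

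The other called partners act at the central spindle. Ect2, the exchange factor that centralspindlin recruits for cytokinesis, was at 12.89, 12.82 and 13.08 in Uba3 cKO oocytes, against 12.67, 12.48 and 12.38 in control oocytes (0.42, SE 0.10, adjusted p = 0.0197). Leaving out a library ended this call in 4 cases: replicate 1 or 3 of Uba3 cKO, and replicate 2 or 3 of control (adjusted p up to 0.112). Prc1, the microtubule bundler bound by KIF4, differed by -0.25 (adjusted p = 0.0483), a call kept in 9 of 18 alternative fits, and lost when any library but control replicate 1 was left out (adjusted p up to 0.19). Their kinesin partners Kif23 and Kif4 were not called, as given above.

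Of 25 kept genes of intraflagellar transport, the cargo trains that kinesin-2 moves along cilia, none was called, against 8.14% of all kept genes. An unadjusted p under 0.05 was given to 3 (12%), against 22.8% of all kept genes. The median was -0.10, and 19 of the 25 differences were below 0 (76%), against 51.8% of all kept genes. The largest difference was above 0, that of Ift80 (0.38, adjusted p = 0.0570), whose groups did not overlap. The 2 with the highest log2 value, not corrected for length, were Ift122 and Ift46, which differed by -0.23 (SE 0.09, adjusted p = 0.147) and -0.09 (SE 0.10, adjusted p = 0.642).

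**Figure D5:**
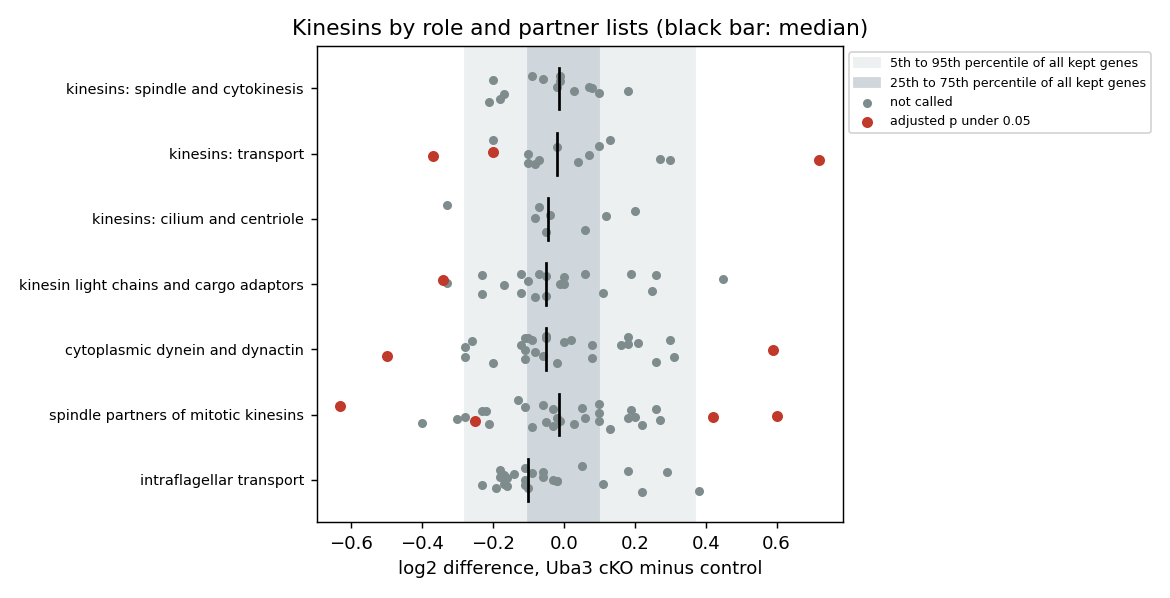
Log2 differences (Uba3 cKO minus control) of kept kinesins in 3 roles (spindle and cytokinesis, transport, cilium and centriole) and of kept genes in 4 lists of kinesin partners, each point a gene, red where called, with a black bar for the median and grey bands for percentiles of all kept genes (the 5th is -0.28 and the 95th 0.37). The medians of the 3 roles and 4 lists shown lie between -0.10 and -0.01, and called genes lie on both sides of 0.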

How the data were processed

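RNA sequencing libraries of 3 Uba3 cKO and 3 control pools of oocytes were analysed, grouped by title. Per the submitters' processing notes, the tools were DESeq2, featureCounts, STAR and fastp, and the build was GRCm39. The sources used here give no versions or settings. The deposited table holds log2 values normalized by the authors, as read from the values (0.0363 to 18.01). The transform is not named, and values shrink together at the low end as in a regularized logarithm. Depth is unknown, so no counting interval is given.

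GENCODE M21, which annotates the build before that one, gave symbols for 27660 of 28738 IDs (96.2%), as well as chromosome, exonic length (union of exons) and coding sequences, so lengths may differ from those the authors counted. Uba3 cKO was compared with control by limma (version 3.58.1, R version 4.3.3, intensity trend on), with Benjamini-Hochberg adjustment over 17450 kept genes. The fit was tested on simulated data. Named were all kinesins, with values by library for called genes, for most spindle motors and for others chosen after their values were seen, and from each list the called genes or the 2 with the highest value. Klc1 to Klc3, the uncalled augmin subunits and Ift80 were named after their values were seen. Members, roles and lists were chosen with earlier results of these data known. Alternatives covered pseudocount, filter, scaling, variance model, sample weights, replicate block, threshold and leaving out each library. The threshold alternative is the main fit read at an adjusted p under 0.1, so every call is kept there by construction. The length and GC correction used the longest transcript of each gene, not the union of exons, and was chosen after seeing the data.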

Additional observations from a re-analysis of the deposited data

How the results depend on the processing

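Kif21b kept its call in all 18 alternatives, as did Uba3. The count of 2 lower kinesins was 0 with no filter and with no intensity trend, 1 with the stricter filter (linear value of 50 or more), which dropped Kifc2, 1 with the replicate block, and 1 after the length and GC correction with or without the block. Leaving out 1 library gave 0 to 1, the 1 being Kif5b without Uba3 cKO replicate 2 and Kif17 without control replicate 1. With sample weights the count was 2, but with Kif28 in place of Kifc2. The count of 1 higher kinesin was 3 with sample weights and 3 at an adjusted p under 0.1, Kif13b and Kif1b being added in both, and 1 without any single library. The 7 calls in the partner lists became 15 with sample weights and 15 at an adjusted p under 0.1, and 4 to 11 without 1 library (4 without Uba3 cKO replicate 1, control replicate 2 or control replicate 3, and 11 without control replicate 1). Over all genes the 437 lower calls became 829 with sample weights and 790 at an adjusted p under 0.1. Without 1 library there were 482 to 1014 higher and 136 to 623 lower calls, with 482 and 136 without control replicate 3. The median difference of the kinesins lay between -0.05 and -0.01 in all fits. Of 679 refits of the 38 uncalled kinesins, 6 gave a call, in 4 genes: Kif13b, Kif1b, Kif28 (with sample weights) and Kif17 (without control replicate 1). Deviations from the group means had correlations of -0.085, -0.198 and -0.0538 between same-numbered libraries, and up to 0.277 between others. With 3 libraries per group, these values cannot show whether equal numbers mark paired pools. The cause of each change was not tested. Depth is unknown, which limits what can be said of genes at low levels.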
